A study of Mus musculus with 12 samples.

Results

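Expression of 10 genes of the PDGF, FGF and EGF receptor systems was examined in MEF cells, fibroblasts from mouse embryos: the receptors Pdgfra, Pdgfrb, Fgfr1, Fgfr2 and Egfr, and the ligands Pdgfa, Pdgfc, Fgf2, Fgf7 and Nrg2. They were taken by gene symbol, and all 10 were found among the 43280 entries of one table and the 23930 entries of the other, which together hold 46765 distinct names. All cells came from C57BL/6 embryos at embryonic day 13.5 and had been immortalized spontaneously by serial passage. In the first experiment, 2MUT cells expressed a cancer-associated mutant of human IDH2 from a retrovirus with puromycin selection, and Control cells carried the empty vector under the same selection. Whether the resistant cells were a pool or a clone is not stated in the sources used here. In the second, MEF cells, for which no vector is named, were given 300 μM of 2-HG, the metabolite made by mutant IDH enzymes, in its membrane-permeant octyl form for 24 h, 2-HG(+), or were left without it, 2-HG(-). The labels list DMSO for the 2-HG(-) cells, whereas the study calls them non-treated. Each of the 4 groups had 3 libraries. No RNA-seq group with wild-type IDH2 was analysed here, so an effect of the mutation cannot be told apart from one of extra IDH2. The sources describe triplicates without saying that these were separate cultures, so p-values measure the spread between these libraries, which may be technical.

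PDGF, FGF and EGF family ligands bind receptor tyrosine kinases at the cell surface, and the paired receptors pass the signal through adaptor proteins and RAS to the kinase ERK, or through PI3K to AKT. PDGF ligands act mainly on mesenchymal cells such as fibroblasts, pericytes and smooth muscle cells. Among the FGFs, FGF7 is made by fibroblasts and acts on epithelial cells, which carry a splice form of FGFR2, while FGF2 acts on fibroblasts themselves. The neuregulins, to which Nrg2 belongs, bind ERBB3 and ERBB4, relatives of EGFR.

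Levels are in RPM, the reads assigned to a gene for every 1000000 reads assigned to any gene. Depth was between 6472439 and 7313602 reads per library in the 2MUT experiment and between 14959318 and 18363768 in the 2-HG experiment, so that 3 reads, the floor used here, equal 0.41 to 0.464 RPM and 0.163 to 0.201 RPM. In the Ion AmpliSeq assay each gene is read from a short amplified target, so levels of the 10 genes were not compared with each other, and sums over marker lists only describe the reads. Errors after ± are SD over the 3 libraries of a group. Of the 16 fibroblast markers, 12 were tested in either experiment, among them collagens, fibronectin and lysyl oxidase, with a summed level between 17833 and 20350 RPM in Control, 16213 and 16945 RPM in 2MUT, 26949 and 29358 RPM in 2-HG(-), and 19249 and 19708 RPM in 2-HG(+). Fap and Lum, also markers of fibroblasts, were at or below 1.57 RPM in every library. Summed markers of epithelial cells were at most 4.245 RPM, those of endothelial cells at most 3.863 RPM and those of leukocytes at most 14.706 RPM, the last mostly Cd68, and Epcam was at 0 in all 12 libraries. As in any bulk RNA, fewer cells of a type and less RNA per cell cannot be told apart.

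Upstream sequences are shown for the PDGF genes with an entry in the promoter table: Pdgfra, which fell with 2-HG, Pdgfc, which rose in both experiments, and both starts of Pdgfa, which went opposite ways. They are the 250 bases before the annotated start from the RefSeq promoter table (GRCm38.p6), 5′ to 3′ on the strand of the gene, in lower case with CG dinucleotides, the sites of DNA methylation, in capitals. Pdgfra is at chr5:75152001-75152250 on the plus strand, before a RefSeq start that matches no start of a GENCODE M21 transcript, Pdgfc at chr3:81036166-81036415 on the plus strand, and Pdgfa at chr5:138994282-138994531 and chr5:138994945-138995194 on the minus strand.
Pdgfra: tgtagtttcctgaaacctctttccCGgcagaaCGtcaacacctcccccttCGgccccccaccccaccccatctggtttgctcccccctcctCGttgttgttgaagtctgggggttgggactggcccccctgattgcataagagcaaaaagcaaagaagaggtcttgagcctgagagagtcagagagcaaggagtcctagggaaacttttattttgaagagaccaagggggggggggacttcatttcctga
Pdgfc: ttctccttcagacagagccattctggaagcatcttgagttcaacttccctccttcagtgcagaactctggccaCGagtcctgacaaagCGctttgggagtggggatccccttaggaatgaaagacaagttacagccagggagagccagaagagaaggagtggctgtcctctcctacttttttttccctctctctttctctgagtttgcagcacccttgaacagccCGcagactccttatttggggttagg
Pdgfa, first window: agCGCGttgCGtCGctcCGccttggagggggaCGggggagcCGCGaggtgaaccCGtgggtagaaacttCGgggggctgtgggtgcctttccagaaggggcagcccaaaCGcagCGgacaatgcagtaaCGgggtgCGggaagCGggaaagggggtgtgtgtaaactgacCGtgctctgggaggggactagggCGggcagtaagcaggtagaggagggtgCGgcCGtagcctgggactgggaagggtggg
Pdgfa, second window: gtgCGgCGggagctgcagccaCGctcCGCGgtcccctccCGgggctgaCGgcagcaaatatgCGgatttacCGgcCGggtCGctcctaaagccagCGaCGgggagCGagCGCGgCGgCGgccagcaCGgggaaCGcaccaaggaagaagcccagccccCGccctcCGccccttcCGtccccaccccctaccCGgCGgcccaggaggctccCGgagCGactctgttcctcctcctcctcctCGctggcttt

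The windows differ in CG content. Pdgfra holds 4 CG dinucleotides and Pdgfc 3, below the median of 6 over the 32851 promoters of the table, whereas the Pdgfa windows hold 19 and 28. Entries were matched for 7 of the 10 genes; Fgfr1, Pdgfrb and Nrg2 had none. Among the others, Fgf2 holds 20, Egfr 11, Fgf7 6 and Fgfr2 2. The RefSeq start of Fgfr2, like that of Pdgfra, matches no start of a GENCODE M21 transcript. Neither ACGTG, the core of the hypoxia response element, nor TGANTCA, the AP-1 site, was found on either strand in any window of the 7 genes, against 16.6% and 6.75% of all promoters. GGGCGG, the GC box, occurred in the windows of Fgf2, Pdgfa and Egfr and not in those of Pdgfra, Pdgfc, Fgf7 and Fgfr2, against 32.7% of all promoters. Such matches describe the letters of the window only.

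Pdgfra, the receptor for the A, B and C chains of PDGF, fell with 2-HG. It lies on chromosome 5 between 75152292 and 75198215 on the plus strand (GENCODE M21, GRCm38). The 2-HG(-) libraries had 91.3, 65.0 and 85.2 RPM, a mean of 80.5 ± 13.7 RPM (SD, n = 3), and the 2-HG(+) libraries had 22.1, 31.6 and 38.2 RPM, a mean of 30.7 ± 8.08 RPM (SD, n = 3). Every treated library was below every untreated one, and the mean was 2.63-fold lower. On log2(RPM + 1) the difference was -1.38 (SE 0.20, limma, Benjamini-Hochberg adjusted p = 0.00068). In the 2MUT experiment Pdgfra had 348, 334 and 434 RPM in Control and 411, 468 and 496 RPM in 2MUT. These groups overlapped, since the third Control library exceeded the lowest 2MUT library, and the log2 difference of 0.31 (95% interval 0.05 to 0.56) did not pass the threshold (limma, adjusted p = 0.062). It passed without that Control library, at 0.42 (limma, adjusted p = 0.0065), and with DESeq2 on recovered reads, at 0.31 (adjusted p = 0.040).

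Pdgfrb, the receptor for PDGF-BB and PDGF-DD that marks pericytes and fibroblasts, lies on chromosome 18 and was also lower with 2-HG. Its level went from 310, 296 and 316 RPM in 2-HG(-) to 105, 110 and 103 RPM in 2-HG(+). The treated libraries were close together and far below the others, 2.90-fold in the mean, with a log2 difference of -1.53 (SE 0.09, limma, adjusted p = 3.3e-06). With the mutant the shift was small, from 187, 177 and 183 RPM in Control to 150, 163 and 140 RPM in 2MUT. The groups did not overlap and the difference of -0.27 (SE 0.10) was just past the threshold (limma, adjusted p = 0.049). That call was lost in each of the 6 fits that left out a library, with adjusted p between 0.055 and 0.178, and in 6 of 9 other settings. The summed list of 8 markers of pericytes and smooth muscle was between 292 and 305 RPM in Control against 147 and 165 RPM in 2MUT, and between 400 and 447 RPM in 2-HG(-) against 228 and 244 RPM in 2-HG(+). Most of its reads came from Acta2, smooth muscle actin, and Notch3. Of 4 genes tested, Acta2 and Notch3 fell in 2MUT, and with 2-HG Acta2 fell, from 381 ± 17.8 to 197 ± 8.13 RPM, while Mcam rose from 5.18 ± 1.01 to 10.1 ± 1.43 RPM. Cspg4 did not pass in either, and the pericyte genes Rgs5 and Abcc9 were at 0 in all libraries. What part these genes have in the result was not tested.

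Among the PDGF ligands, Pdgfa moved in opposite directions in the experiments and Pdgfc rose in both. Pdgfa encodes the A chain, which signals mainly through PDGFRA, and lies on chromosome 5 between 138976014 and 138997370 on the minus strand. It had 89.1, 89.0 and 93.3 RPM in Control and 61.2, 75.1 and 66.5 RPM in 2MUT. All 2MUT libraries were lower, 1.34-fold in the mean, with a log2 difference of -0.42 (SE 0.11, limma, adjusted p = 0.014). Without the first 2MUT library the difference was -0.35 and no longer passed (limma, adjusted p = 0.067). The 2-HG(-) libraries had 45.7, 47.9 and 54.0 RPM and the 2-HG(+) libraries 68.6, 63.4 and 67.5 RPM. Here all treated libraries were higher, 1.35-fold in the mean, with a difference of 0.43 (SE 0.10, limma, adjusted p = 0.012).

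Pdgfc encodes a ligand that is secreted latent and cleaved by proteases before it binds PDGFRA. The gene lies on chromosome 3 between 81036416 and 81214040 on the plus strand. Control libraries had 16.3, 12.5 and 15.9 RPM and 2MUT libraries 23.9, 25.3 and 23.4 RPM. No libraries overlapped, and the rise was 1.63-fold in the mean and 0.67 in log2 (SE 0.15, limma, adjusted p = 0.0063). With 2-HG it went from 40.4, 41.9 and 49.5 RPM to 99.2, 105 and 88.1 RPM. The treated libraries were again all higher, by 2.22-fold in the mean and 1.13 in log2 (SE 0.12, limma, adjusted p = 0.0001). Plat, tissue plasminogen activator, which cleaves this ligand, fell with 2-HG from 244 ± 12.2 to 202 ± 1.47 RPM (SD, n = 3), by 0.27 in log2 (limma, adjusted p = 0.038), a call lost in each of the 6 fits without 1 library.

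**Figure D1:**
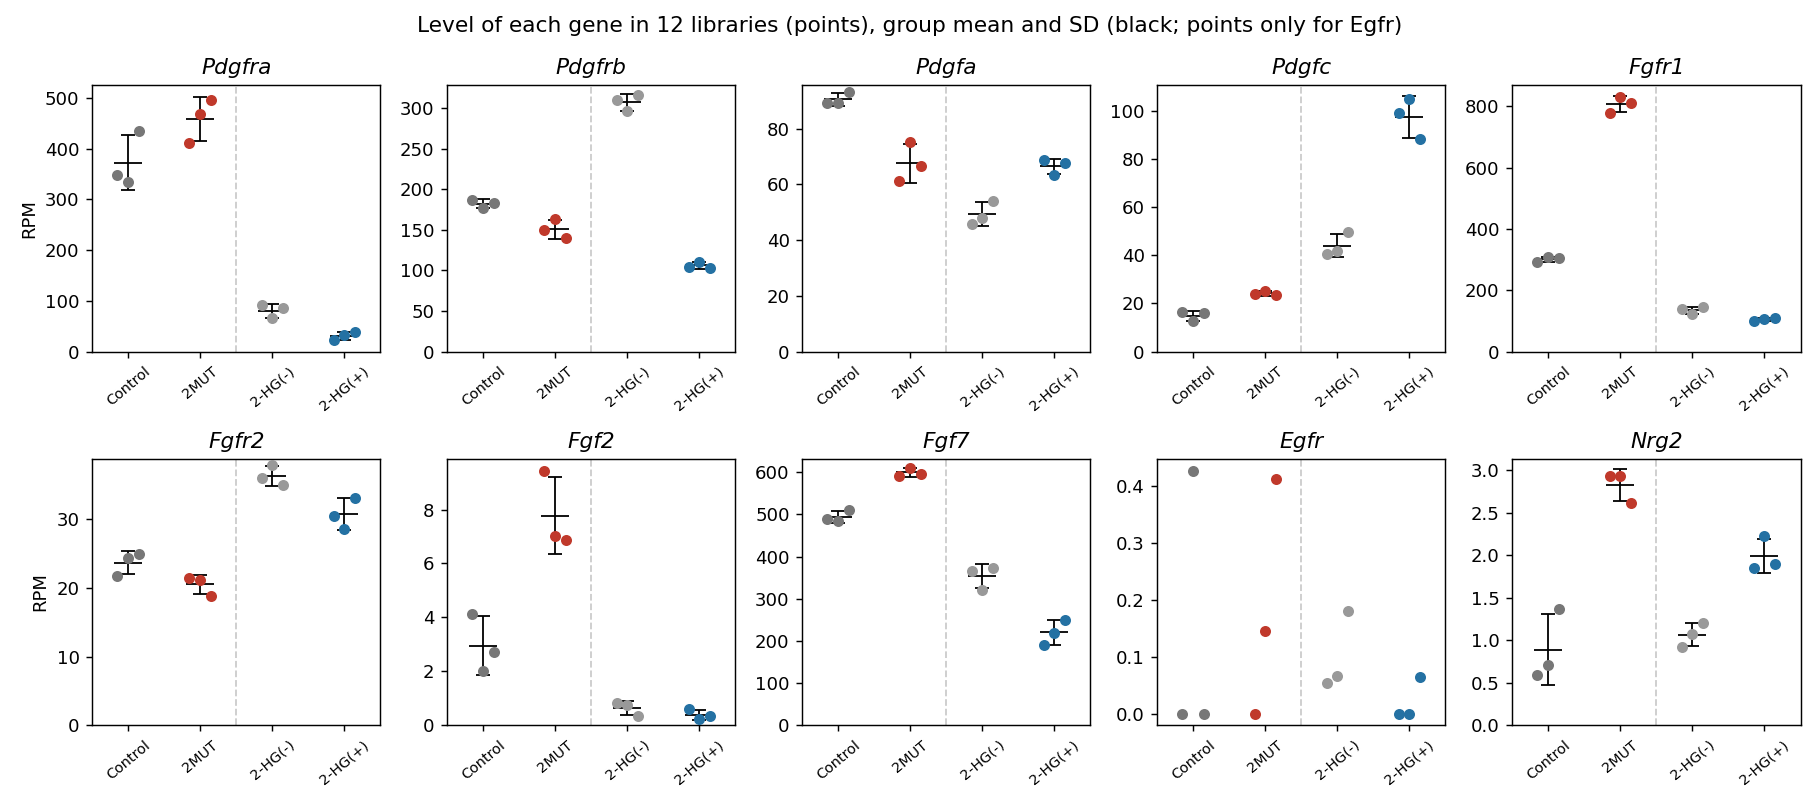
Level of each of the 10 genes in RPM (vertical axis, linear from 0, own scale per gene) in the 3 libraries of Control, 2MUT, 2-HG(-) and 2-HG(+), with the group mean and SD as bars, except for Egfr, where only points are drawn. The dashed line separates the 2 tables, which were normalized apart: Fgfr1 stands high in 2MUT, and Pdgfra and Pdgfrb stand low in 2-HG(+) next to 2-HG(-).

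Fgfr1, the main FGF receptor of mesenchymal cells, rose in 2MUT cells. It lies on chromosome 8 between 25513654 and 25575718 on the plus strand. Its level was 292, 307 and 304 RPM in Control and 778, 830 and 812 RPM in 2MUT. The replicates lay close together, with means of 301 ± 7.91 and 806 ± 26.5 RPM (SD, n = 3), a 2.68-fold rise and a log2 difference of 1.42 (SE 0.08, limma, adjusted p = 8.2e-07). With 2-HG the level was 137, 123 and 145 RPM without treatment and 98.5, 105 and 111 RPM with it. The groups did not overlap and Fgfr1 fell 1.29-fold in the mean, by 0.36 in log2 (SE 0.10, limma, adjusted p = 0.022). This call was lost in 4 of the 6 fits without 1 library, those without the first or the third 2-HG(-) library or without the first or the second 2-HG(+) library, with adjusted p between 0.052 and 0.096, and in the unmoderated test (adjusted p = 0.059).

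Fgfr2, the receptor for FGF7 and FGF10 in epithelial cells, lies on chromosome 7 between 130162451 and 133123350 on the minus strand, an annotated extent that overlaps 69 other genes. It was detected in every library without passing the threshold in either comparison. Its level was 21.8, 24.4 and 25.0 RPM in Control and 21.5, 21.2 and 18.9 RPM in 2MUT, and 36, 37.9 and 35.0 RPM in 2-HG(-) and 30.5, 28.6 and 33.2 RPM in 2-HG(+). All libraries of 2MUT and of 2-HG(+) were below those of their reference group, but the log2 differences of -0.20 (95% interval -0.51 to 0.11, limma, adjusted p = 0.30) and -0.23 (95% interval -0.48 to 0.01, limma, adjusted p = 0.13) have intervals that include 0.

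Fgf2, a heparin-binding FGF without a classical secretion signal, was low and rose in 2MUT cells. The gene lies on chromosome 3 between 37348346 and 37410108 on the plus strand and overlaps Nudt6 and Fgf2os on the other strand. Control libraries had 4.14, 1.99 and 2.74 RPM and 2MUT libraries 9.43, 7.03 and 6.88 RPM. The groups did not overlap, the mean was 2.63-fold higher, and the log2 difference was 1.17 (SE 0.24, limma, adjusted p = 0.0037). In the unmoderated test the call was lost (adjusted p = 0.052). Nudt6 itself was at most 1.85 RPM in these 6 libraries. In the 2-HG experiment Fgf2 stood at 0.817, 0.735 and 0.360 RPM without and 0.595, 0.241 and 0.327 RPM with 2-HG. These overlapping values were under the filter of a mean of 1 RPM, so Fgf2 was left out of the main test there. Without the filter its log2 difference was -0.24 (95% interval -0.53 to 0.06, limma, adjusted p = 0.30).

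Fgf7, also called keratinocyte growth factor, rose in 2MUT and fell with 2-HG. It lies on chromosome 2 between 126034658 and 126091185 on the plus strand. Its level was 490, 484 and 511 RPM in Control and 591, 611 and 597 RPM in 2MUT. No libraries overlapped, and the rise was 1.21-fold in the mean and 0.28 in log2 (SE 0.08, limma, adjusted p = 0.021). It was lost when any 2MUT library was left out, with adjusted p between 0.060 and 0.080. With 2-HG it went from 367, 322 and 373 RPM to 192, 219 and 250 RPM. All treated libraries were below all untreated ones, by 1.61-fold in the mean and 0.69 in log2 (SE 0.12, limma, adjusted p = 0.0019). Fam227b, which overlaps Fgf7 on the other strand, was at most 1.24 RPM in any library.

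Egfr, the receptor for EGF, TGFA and other ligands, was at or under the floor throughout. It lies on chromosome 11 between 16752203 and 16918158 on the plus strand. The libraries had 0, 3 and 0 reads in Control, 0, 1 and 3 in 2MUT, 1, 1 and 3 in 2-HG(-) and 0, 0 and 1 in 2-HG(+). A difference was not detectable at this depth, and Egfr was left out of the main test by the filter.

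Nrg2, a neuregulin on chromosome 18, was also low but above the floor in all libraries. It had 0.592, 0.712 and 1.37 RPM in Control and 2.94, 2.93 and 2.61 RPM in 2MUT. The groups did not overlap, with a 3.17-fold higher mean and a log2 difference of 1.04 (SE 0.25, limma, adjusted p = 0.0081). Nrg2 reached the 1 RPM filter there only through the 2MUT libraries, in which it was high. With DESeq2 on recovered reads, without an added value, the difference was 1.66 (adjusted p = 0.019). With 2-HG it went from 0.926, 1.07 and 1.20 RPM to 1.85, 2.23 and 1.90 RPM. The treated libraries were all higher, 1.87-fold in the mean and 0.53 in log2 (SE 0.15, limma, adjusted p = 0.020), a call lost without the first 2-HG(-) library (adjusted p = 0.067) or without the second 2-HG(+) library (adjusted p = 0.083). DESeq2 gave 0.92 (adjusted p = 0.036).

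Of the 10 genes, 9 were tested in the 2MUT comparison. Fgfr1, Fgf2, Fgf7, Pdgfc and Nrg2 rose, Pdgfa and Pdgfrb fell, and Pdgfra and Fgfr2 did not pass the threshold. Nrg2 reached the filter only through its high group, and without it 4 of 8 rose. Of the 6 fits without 1 library, the call of Pdgfrb was lost in 6, that of Fgf7 in 3 and that of Pdgfa in 1. The other calls in 2MUT were kept in all 6. Over all 11065 genes tested, 33.8% passed, 16.5% higher and 17.3% lower, and the median log2 difference was 0.31 for the 9 genes and 0.01 for all. In the 2-HG comparison 8 were tested. Pdgfc, Pdgfa and Nrg2 rose, Pdgfrb, Pdgfra, Fgf7 and Fgfr1 fell, and Fgfr2 did not pass, while 32.8% of 10384 genes passed, 16.1% higher and 16.7% lower. The median was -0.30 for the 8 genes and -0.02 for all. With 2-HG, the call of Fgfr1 was lost in 4 of the 6 fits without 1 library and that of Nrg2 in 2. The other calls were kept in all 6. Groups without overlap, seen for 8 of the 9 genes in 2MUT and all 8 with 2-HG, occurred in 47.5% and 46.3% of all genes tested.

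**Figure D2:**
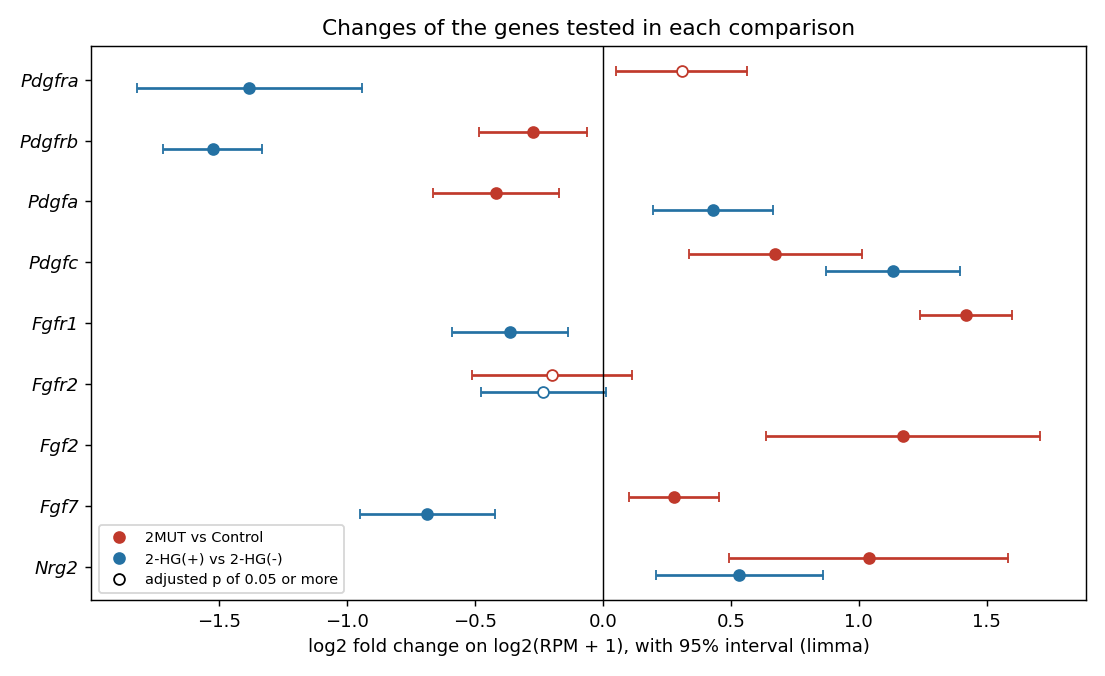
Log2 difference on log2(RPM + 1) with its 95% interval (horizontal axis, limma) for the 9 genes tested in 2MUT against Control (red) and the 8 tested in 2-HG(+) against 2-HG(-) (blue), with open circles for an adjusted p of 0.05 or more. Pdgfrb and Pdgfra lie far to the left with 2-HG, at -1.53 and -1.38, and Fgfr1 far to the right in 2MUT, at 1.42.

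The changes in the experiments were then compared with each other, as the change in 2MUT minus the change with 2-HG, in 1 limma fit over the 12 libraries. Of the 8 genes tested in both, 5 differed, 4 of them with the higher change in 2MUT and 1 with the lower, against 39.4% of 9594 genes, 19.9% higher and 19.5% lower. The difference was 1.78 in log2 for Fgfr1 (limma, adjusted p = 1.9e-07), which rose in 2MUT and fell with 2-HG. Pdgfra differed by 1.69 (SE 0.25, limma, adjusted p = 0.0002) and Pdgfrb by 1.25 (SE 0.12, limma, adjusted p = 3.3e-06). For both, the change with 2-HG was lower than that with the mutant. Fgf7 differed by 0.96 (SE 0.14, limma, adjusted p = 0.0001), having risen in 2MUT and fallen with 2-HG, and Pdgfa by -0.85 (SE 0.15, limma, adjusted p = 0.0005), the other way round. Fgfr2 (0.03, 95% interval -0.31 to 0.38), Pdgfc (-0.46, limma, adjusted p = 0.058) and Nrg2 (0.50, limma, adjusted p = 0.14) did not pass. Pdgfc passed without the second Control, the third 2-HG(-) or the third 2-HG(+) library, with adjusted p between 0.019 and 0.046, and Nrg2 without the third Control library (0.68, adjusted p = 0.040). The experiments also differ in depth, in the vector and selection, and in the way and length of exposure to 2-HG, which cannot be told apart here. The tables were normalized separately and list different entries, so their baselines are not comparable: Adam17 read 2.09 RPM in Control and 53.9 RPM in 2-HG(-), and Pdgfra 372 and 80.5 RPM.

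The other family members, ligand-processing enzymes, relay proteins and ERK-regulated genes were read from 6 lists of 105 genes. In 2MUT cells 69 were tested, of which 22 rose and 9 fell, with a median of 0.18 against 0.01 for all genes, where 16.5% of all genes tested were higher and 17.3% lower. Without the 4 genes with a mean under 1 RPM in either group, Fgf18 and Fgf21 among them, 20 of 65 rose and 9 fell. With 2-HG 64 were tested, of which 10 rose and 11 fell, or 9 and 11 of 63 without Fgf21, with a median of -0.08 against -0.02, close to the 32.8% called over all genes.

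In the remainder of the PDGF family, Pdgfrl, a receptor-like protein without a kinase, was the only gene tested in 2MUT. It rose from 15.8 ± 1.47 to 29.0 ± 0.376 RPM (SD, n = 3; log2 difference 0.84, limma, adjusted p = 0.00098). With 2-HG it fell from 5.34, 7.69 and 5.34 RPM to 1.72, 1.62 and 1.83 RPM, 3.55-fold in the mean (log2 difference -1.37, limma, adjusted p = 0.00026). Pdgfrl, like Pdgfra, was lower in every 2-HG(+) library, and its changes in the experiments differed by 2.21 in log2 (SE 0.21). Pdgfd was tested only with 2-HG, at 1.19 and 1.66 RPM, and did not pass (limma, adjusted p = 0.23).

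Among the other FGF genes, 6 were tested in 2MUT, of which 3 rose and 1 fell, and 4 with 2-HG, of which 1 rose and 1 fell. Leaving aside Fgf18 and Fgf21, which reached the filter through their high groups, 1 of 4 rose and 1 fell in 2MUT, against 16.5% and 17.3% of all genes, and with 2-HG the call left among 3 genes was the fall of Fgf10, where 16.1% of all genes were higher and 16.7% lower. Fgf10, a mesenchymal ligand of the same receptor form as Fgf7, rose in 2MUT from 39.3 ± 3.68 to 69.7 ± 3.11 RPM (log2 difference 0.81, limma, adjusted p = 0.00041). With 2-HG it fell from 5.47 ± 0.513 to 2.78 ± 0.152 RPM (log2 difference -0.77, limma, adjusted p = 0.0025). Thus Fgf7 and Fgf10 each rose in the one experiment and fell in the other. Fgf21, an endocrine FGF also induced in stressed cells, rose in both. It went from 1.48, 1.14 and 0 RPM in Control to 4.63, 2.05 and 4.40 RPM in 2MUT (log2 difference 1.38, limma, adjusted p = 0.014), and from 0.218, 0.735 and 0.420 RPM in 2-HG(-) to 5.95, 7.28 and 6.14 RPM in 2-HG(+) (log2 difference 2.37, limma, adjusted p = 1.3e-05). Both reference groups were under 1 RPM, so Fgf21 reached the filter only through the groups in which it was high. The 2MUT call was lost in the unmoderated test and without the first or the third 2MUT library. With 0.1 added before the logarithm the 2MUT difference was 2.62, and with DESeq2 the 2-HG difference was 3.88. Fgf18 rose in 2MUT to 2.32 ± 0.512 RPM from 0.469 ± 0.290 RPM, close to the floor, and reached the 1 RPM filter only through the 2MUT libraries. Its log2 difference was 1.18 (limma, adjusted p = 0.0058), and 2.31 with DESeq2 on recovered reads. Fgfr3 fell from 4.48 ± 1.32 to 1.46 ± 0.417 RPM in 2MUT (log2 difference -1.14, limma, adjusted p = 0.0063), a call lost in the unmoderated test (adjusted p = 0.054). With 2-HG it stood at 1.29 and 1.10 RPM without passing. The decoy receptor Fgfrl1 had log2 differences of -0.41 in 2MUT (limma, adjusted p = 0.075) and 0.26 with 2-HG (limma, adjusted p = 0.18), and Fgf23 had mean levels of 8.17 and 8.31 RPM in Control and 2MUT.

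Of 8 tested genes of the EGF family, 2 ligands of EGFR, Ereg and Hbegf, rose in 2MUT cells, whereas the neuregulin Nrg1 and the receptors Erbb2 and Erbb3 fell, against 16.5% of all genes higher and 17.3% lower. Ereg, epiregulin, had 31.1, 20.1 and 26.4 RPM in Control and 81.6, 65.7 and 75.4 RPM in 2MUT, a 2.87-fold rise (log2 difference 1.5, limma, adjusted p = 6.2e-05). Hbegf, a heparin-binding ligand of EGFR and ERBB4, had 16.7, 19.2 and 24.2 RPM and 57.0, 49.9 and 64.7 RPM, a 2.85-fold rise (log2 difference 1.47, limma, adjusted p = 6.6e-05). Both are ligands of the receptor Egfr, which was at the floor. Erbb3, a receptor for neuregulins with little kinase activity of its own, fell from 116 ± 9.34 to 46.0 ± 4.25 RPM (log2 difference -1.32, limma, adjusted p = 1.5e-05). Erbb2, the partner without a known ligand, fell from 96.4 ± 3.66 to 73.5 ± 9.02 RPM (log2 difference -0.39, limma, adjusted p = 0.023), a call lost without the first or the third 2MUT library and in the unmoderated test (adjusted p = 0.077). Nrg1 fell in both experiments, from 233 ± 12.9 to 129 ± 13.3 RPM in 2MUT (log2 difference -0.85, limma, adjusted p = 0.00013) and from 75.7 ± 10.2 to 39.0 ± 3.58 RPM with 2-HG (log2 difference -0.93, limma, adjusted p = 0.00056), while Nrg2 rose in both. With 2-HG, 5 genes of this family were tested, of which 1 rose and 1 fell, against 16.1% and 16.7% of all genes, and Hbegf rose from 27.5 ± 2.46 to 46.6 ± 3.43 RPM (log2 difference 0.74, limma, adjusted p = 0.0011). Ereg, Erbb2 and Erbb3 did not pass there, with log2 differences of 0.24, -0.24 and 0.08, although Erbb2 passed without the second 2-HG(-) library (-0.52, limma, adjusted p = 0.028). The changes of Ereg, Hbegf and Erbb3 differed between the experiments by 1.27, 0.73 and -1.39 in log2. Btc, Egf and Tgfa, tested only in 2MUT, did not pass, at log2 differences of 0.23, -0.16 and 0.63. Tgfa, at means of 0.668 and 1.68 RPM in overlapping groups, reached the filter only through the 2MUT libraries. It passed in 1 of the 6 fits without 1 library (limma, adjusted p = 0.045), and its difference was up to 1.34 in the other settings.

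Of the genes that process or release ligands, 3 of 8 tested rose and 1 fell in 2MUT, and 3 of 7 tested fell with 2-HG, 1 of them Plat with its unstable call, against 33.8% and 32.8% of all genes called in either direction. Adam10, a protease that sheds membrane-bound ligands, rose in 2MUT from 209 ± 26 to 338 ± 23.9 RPM (log2 difference 0.70, limma, adjusted p = 0.00074) and fell with 2-HG from 230 ± 23.7 to 147 ± 22 RPM (log2 difference -0.65, limma, adjusted p = 0.0041), the fall being lost in the unmoderated test (adjusted p = 0.057). Furin, the convertase that cleaves many proproteins including PDGF precursors, rose in 2MUT from 119 ± 18.1 to 230 ± 40.4 RPM (log2 difference 0.94, limma, adjusted p = 0.00066). Adam9 rose there by 0.29 in log2 (limma, adjusted p = 0.025), lost in 4 of the 6 fits without 1 library. Rhbdf1, an inactive rhomboid that escorts the sheddase ADAM17, fell in both, with log2 differences of -0.69 in 2MUT (limma, adjusted p = 0.0011) and -0.69 with 2-HG (limma, adjusted p = 0.00093).

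Along the relay from receptor to ERK, 26 genes were tested in 2MUT, of which 6 rose and 3 fell, and 27 with 2-HG, of which 3 rose and 3 fell, against 33.8% and 32.8% of all genes called in either direction. Shc1, an adaptor that binds activated receptors, fell in 2MUT from 1262 ± 88.7 to 639 ± 10.8 RPM (log2 difference -0.98, limma, adjusted p = 1.2e-05). Mapk3, which encodes ERK1, fell from 268 ± 21.5 to 164 ± 23.4 RPM (log2 difference -0.72, limma, adjusted p = 0.00088). The kinases Map2k1 and Araf and the scaffold Ksr1, all above ERK, rose by 0.58, 0.44 and 0.52 in log2. The call of Map2k1 was lost without the first or the third 2MUT library and that of Araf without the second or the third, with adjusted p between 0.056 and 0.073, and both in the unmoderated test, with adjusted p of 0.077 and 0.082. Rasa1, which turns RAS off, rose in 2MUT (log2 difference 1.05, limma, adjusted p = 0.0029) and fell with 2-HG (log2 difference -0.52, limma, adjusted p = 0.0071). The adaptor Gab2 went the other way, with log2 differences of -0.67 in 2MUT (limma, adjusted p = 0.003) and 0.55 with 2-HG (limma, adjusted p = 0.015), the latter lost in the unmoderated test (adjusted p = 0.052) and without the second 2-HG(+) library. With 2-HG, Hras rose by 0.40 in log2, a call lost without the second 2-HG(+) library (adjusted p = 0.052), while the adaptor Gab1 fell by 0.54.

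Of the feedback inhibitors and ERK-induced genes, 7 of 20 tested rose and 1 fell in 2MUT. Over all genes tested there, 16.5% were higher and 17.3% lower. With 2-HG, 5 of 19 rose and 2 fell, where 16.1% of all genes were higher and 16.7% lower. Ier3 and Fosl1, early response genes, rose in both: Ier3 by 1.33 (limma, adjusted p = 2.6e-05) and 1.12 (limma, adjusted p = 0.0007), and Fosl1 by 0.84 (limma, adjusted p = 0.00066) and 0.94 (limma, adjusted p = 0.0015). In 2MUT the inhibitors Lrig1, Spred2, Spred1 and Spry2 rose by 0.63, 0.61, 0.39 and 0.37, and the ubiquitin ligase Cblb fell by 0.38. Of these, Lrig1 and Spred2 passed in all 6 fits without 1 library, Spred1 in 5, Spry2 in 2 and Cblb in 1. Lrig3 had 151, 138 and 12.7 RPM in Control and 311, 311 and 333 RPM in 2MUT. The third Control library stood far below the others, and the log2 difference of 2.27 (limma, adjusted p = 0.024) was 1.14 without it (limma, adjusted p = 9.6e-07) and did not pass without any 1 of the 2MUT libraries (adjusted p between 0.060 and 0.065), with DESeq2 (1.66, adjusted p = 0.15) or in the unmoderated test (adjusted p = 0.23). With 2-HG, the transcription factors Etv5 and Etv4 and the inhibitor Spry4 rose by 0.95 (limma, adjusted p = 0.00096), 0.53 (limma, adjusted p = 0.023) and 0.85 (limma, adjusted p = 0.007). Spry4 was low, at 2.36 ± 0.309 and 5.13 ± 1.45 RPM (SD, n = 3), and the call of Etv4 was lost in 5 of the 6 fits without 1 library, all but that without the first 2-HG(+) library, and also with no filter, in the unmoderated test and with a replicate block (adjusted p between 0.056 and 0.072 in those 3 fits). Lrig3 and Lrig2 fell with 2-HG by 0.59 and 0.41, and Lrig2 passed in 1 of the 6 fits without 1 library. In the unmoderated test the falls of Lrig3 (adjusted p = 0.072) and Lrig2 (adjusted p = 0.095) and the rise of Spry4 (adjusted p = 0.059) did not pass.

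**Figure D3:**
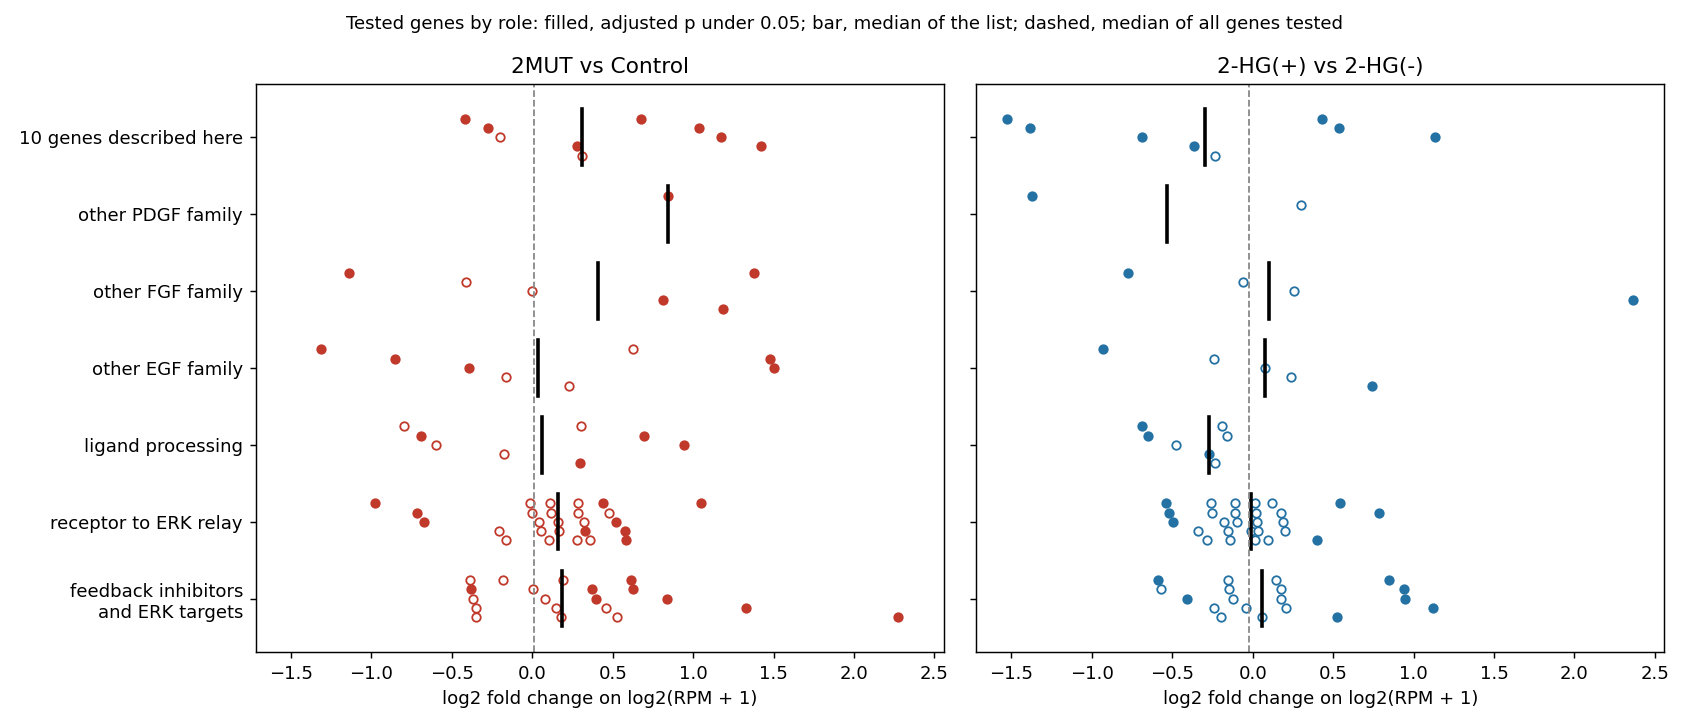
Log2 difference of each tested gene (horizontal axis, log2(RPM + 1)) by role, in 2MUT against Control (left) and 2-HG(+) against 2-HG(-) (right), filled where the adjusted p was under 0.05, with the median of each list as a bar and that of all genes tested as a dashed line. In both panels most roles hold genes on each side of the dashed line, and the point farthest to the right is Lrig3 in 2MUT, at 2.27, and Fgf21 with 2-HG, at 2.37.

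Beside these genes, fibroblast markers were lower in both experiments: of 12 tested, 9 fell and 1 rose in 2MUT (median -0.68) and 6 fell and 1 rose with 2-HG (median -0.53), against 17.3% and 16.7% of all genes lower. Of the glial and neural markers, Nes fell in 2MUT among 4 tested, and with 2-HG Nes and Tubb3 rose and Map2 fell among 3 tested. Their sum was between 62.3 and 75.9 RPM in Control against 51.4 and 60.9 RPM in 2MUT, and between 39.9 and 48.1 RPM in 2-HG(-) against 59.3 and 64.1 RPM in 2-HG(+). Of the leukocyte markers, 2 were tested in each experiment. Lyz2 rose in 2MUT from 0.56 to 2.62 RPM, reaching the filter only through the 2MUT libraries. With 2-HG, Cd68 fell from 12.4 to 8.46 RPM. The part of any of these markers in the changes of the receptors and ligands was not tested.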

How the data were processed

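RNA of 12 MEF samples was made into Ion AmpliSeq libraries by the authors, who aligned the reads to the AmpliSeq mouse transcriptome with TMAP, used the AmpliSeqRNA plug-in for counting, and deposited the result as RPM in one table per experiment. Whole reads were recovered from the RPM steps for at least 99.9% of values in each library (within 0.05 of a read), and 0 sample columns were left unused. Replicates differed beyond counting noise (chi-square divided by its degrees of freedom, 5.88 to 33.1).

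Tests used limma 3.58.1 in R 4.3.3 with a mean-variance trend on log2(RPM + 1), for genes whose mean over the 6 libraries compared reached 1 RPM, and Benjamini-Hochberg adjustment over all genes tested with a threshold of 0.05. Such log2 differences understate the change of low genes. The difference of the changes was a contrast over all 12 libraries. Alternatives were 0.1 added in place of 1, no filter or one at 10 RPM, quantile or median-of-ratios scaling, an unmoderated test, a replicate block, edgeR 4.0.16 or DESeq2 1.42.0 on recovered reads, and each library left out. On the recovered reads edgeR called 1817 genes higher and 1947 lower in 2MUT, and 1794 and 1752 with 2-HG. The limma fits were tested on simulated data.

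Genes named beside the 10 are the tested family members and, per list and comparison, at most the 8 largest changes past the threshold with groups that do not overlap and at least 5 RPM in the higher group. A few genes that meet these conditions are left out of the text but stay in the counts of their lists. The members and lists were chosen with earlier results of these data known. Coordinates come from GENCODE M21 (GRCm38) and upstream sequences from RefSeq (GRCm38.p6). Positions of the amplified targets, quantitative PCR, protein data and other cell lines were not analysed here. Pandas 2.3.3, scipy 1.17.1 and matplotlib 3.10.9 were used for tables and plots.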

Additional observations from a re-analysis of the deposited data

Results flagged for a closer look

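The difference between the experiments was itself tested (change in 2MUT minus change with 2-HG, log2, limma over 12 libraries, Benjamini-Hochberg threshold 0.05). Of the 10 genes, 8 were tested in this way, without Fgf2 and Egfr. For 5 of the 8 the changes differed: Fgfr1 by 1.78, Pdgfra by 1.69, Pdgfrb by 1.25, Fgf7 by 0.96 and Pdgfa by -0.85. Among the other 17 genes named and tested in both comparisons, 11 differed, but these were named partly for the size of their changes, so their count cannot be set against the share over all genes. The change in 2MUT was above that with 2-HG for Lrig3 by 2.86, Pdgfrl by 2.21, Fgf10 by 1.59, Rasa1 by 1.57, Adam10 by 1.35, Ereg by 1.27 and Hbegf by 0.73. It was below that with 2-HG for Erbb3 by -1.39, Gab2 by -1.22, Fgfr3 by -1.08 and Fgfrl1 by -0.67. The value of Lrig3 was 1.72 without the third Control library. Its difference was lost in the unmoderated test (adjusted p = 0.088). Fgfrl1 passed the threshold in neither experiment taken alone (in 2MUT it passed without the second Control library, adjusted p = 0.043), and its difference was lost with a replicate block and without the third 2MUT or the first 2-HG(-) library (adjusted p between 0.056 and 0.058). The difference of Fgfr3 was lost in 7 of the 12 fits without 1 library, in the unmoderated test and with 0.1 added before the logarithm (adjusted p between 0.051 and 0.084). Of all genes tested in both, 39.4% differed.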

How the results depend on the processing

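Of the results for the 10 genes, 369 of the recomputed log2 differences kept direction and side of the threshold, 25 lost the call, 7 gained it and 2 reversed. Those 2 are leave-one-out values of Fgfr2 in the difference of the changes (range -0.025 to 0.090). An unmoderated test gave 1021 genes higher and 1223 lower in 2MUT, and 1098 and 1139 with 2-HG. In 2MUT, 3 of the 10 genes were higher with a filter at 10 RPM, where Fgf2 and Nrg2 were no longer tested. In 2MUT, 1 of the 10 was lower with 0.1 added, without a filter, with quantile or median-of-ratios scaling, in the unmoderated test and with edgeR, and 0 to 1 when a library was left out. In the difference of the changes, 1 to 2 of the 10 were lower when a library was left out, and 5 pathway genes were lower with a filter at 10 RPM (leave-one-out 6 to 11). The gene missing from the lower ones in 2MUT was Pdgfrb, and without the first 2MUT library also Pdgfa. The gene gained among the lower ones in the difference of the changes was Pdgfc. For the leave-one-out counts of pathway genes, the cause was not tested.

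Values near 0 changed sign. In 2MUT, Fgf23 was 0.025 with edgeR and 0.030 with DESeq2 (leave-one-out -0.14 to 0.19) and Egf was -0.41 to 0.076 when a library was left out. With 2-HG, Fgfr3 was 0.12 with quantile scaling (leave-one-out -0.26 to 0.23). In the difference of the changes, Rhbdf1 was 0.0047 with 0.1 added (leave-one-out -0.074 to 0.047), and leave-one-out gave -0.30 to 0.12 for Erbb2, -0.24 to 0.017 for Fosl1 and -0.0037 to 0.19 for Nrg1.

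The replicate numbers were not used as pairs in the main fits. Deviations of same-numbered samples correlated at 0.07, 0.03 and 0.03 in the 2MUT experiment. In the 2-HG experiment they correlated at -0.46, -0.16 and 0.06. Differently numbered samples ran from -0.14 to 0.089 in the 2MUT experiment and from -0.41 to 0.48 in the 2-HG experiment. Such values over 3 libraries a group cannot show how the samples were made. A fit with the replicate block gave 1911 genes higher and 1987 lower in 2MUT, and 1217 and 1286 with 2-HG. Of the 10 genes, Pdgfra passed in 2MUT under the block (0.31, limma, adjusted p = 0.025) and Fgfr1 did not pass with 2-HG (-0.36, limma, adjusted p = 0.064). Depth limits what can be said of Egfr in all groups and of Fgf2 in the 2-HG experiment.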
